A study of Mus musculus with 6 samples.

Results

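The dendritic cell genes described here are 7 genes chosen by name as markers or regulators of dendritic cell subsets: Siglech and Spib for plasmacytoid cells, Xcr1 and Batf3 for type 1 conventional cells, Clec10a and Cd209a for type 2 and monocyte-derived cells, and Irf8, which several subsets use. All 7 were among the 8468 genes of the deposited table and all 7 entered the test across 5460 genes. RNA was sequenced from CD3+ T cells that a T cell isolation kit had taken from mouse spleen after haematopoietic stem cell transplantation (HSCT). The allo-HSCT group (3 libraries) had C57BL/6 donors and Balb/c hosts, so the graft came from another strain, which is the setting of acute graft-versus-host disease. The syn-HSCT group (3 libraries) had Balb/c donors and Balb/c hosts, so graft and host were of the same strain. Donor strain and type of transplant changed together and cannot be told apart. The labels give neither sex, age, conditioning nor time after transplantation, and do not say whether each library came from its own animal, so the p-values given reflect library-to-library spread alone, and that spread may be technical.

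Dendritic cells take up antigen and present it to T cells. Plasmacytoid cells are known for making type I interferon. Type 1 conventional cells depend on BATF3 and IRF8 and cross-present antigen to CD8+ T cells, and type 2 conventional cells and monocyte-derived cells present mainly to CD4+ T cells. In graft-versus-host disease, dendritic cells of host or donor origin present host antigens to donor T cells.

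The isolates carried T cell RNA at high levels. Of 16 listed T cell markers, 15 were in the table and all 15 passed the test as higher in allo-HSCT. Their summed level ran between 2912 and 2987 FPKM in allo-HSCT and between 1697 and 1817 FPKM in syn-HSCT. FPKM is a read count scaled by gene length and by library size, so a comparison of levels between genes depends on the length used for each. Markers of other cells were present in both groups, and their part in the results on dendritic cell genes was not tested. The 13 of 20 listed monocyte and macrophage markers in the table summed to between 637 and 893 FPKM in allo-HSCT and between 1999 and 2606 FPKM in syn-HSCT, and 10 of the 12 tested fell. The 9 of 16 B cell markers in the table (4 of 5 tested rose, 1 fell) summed to between 25.3 and 28.0 FPKM in allo-HSCT and between 15.7 and 17.8 FPKM in syn-HSCT. The 12 of 15 granulocyte markers (6 rose, 6 fell) summed to between 864 and 1002 FPKM in allo-HSCT and between 1676 and 1698 FPKM in syn-HSCT. The 9 of 10 NK cell markers (5 rose, 4 fell) summed to between 723 and 942 FPKM in allo-HSCT and between 965 and 1010 FPKM in syn-HSCT. No marker of these lists stood at 0 in every library of a group. The library totals, recovered from the values, ran between 15642385 and 17524496 reads. The table holds few genes with small differences: of 4825 genes averaging over 100 reads, none had a log2 ratio of group means between -0.37 and 0.21. Of the genes tested, 93.7% passed the threshold used here (limma on log2(FPKM + 1), Benjamini-Hochberg adjusted p under 0.05), 47.9% as higher and 45.8% as lower in allo-HSCT. The adjustment ran over genes of this table alone, so adjusted p-values may be smaller than over a full transcriptome.

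By subset, the plasmacytoid and the type 2 and monocyte-derived genes were lower in allo-HSCT and the type 1 genes were higher. Siglech, Spib, Clec10a, Cd209a and Irf8 fell and Xcr1 and Batf3 rose. The changes spanned a wide range, with Siglech 22.9-fold lower and Xcr1 4.88-fold higher in allo-HSCT, and with Batf3 only 1.42-fold higher. All 7 passed, as did 93.7% of all genes tested, and the groups did not overlap for any of the 7, nor for 91% of all genes tested, so neither count sets these genes apart. In 5 of the 7 (Siglech, Spib, Xcr1, Clec10a and Cd209a) all libraries of just 1 group reached 1 FPKM, and these 5 therefore entered the test through the group in which they were high. Their count is a description. Batf3 and Irf8 stood above 1 FPKM in all 6 libraries. In these bulk isolates, fewer cells of a subset and less RNA per cell cannot be told apart.

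**Figure D1:**
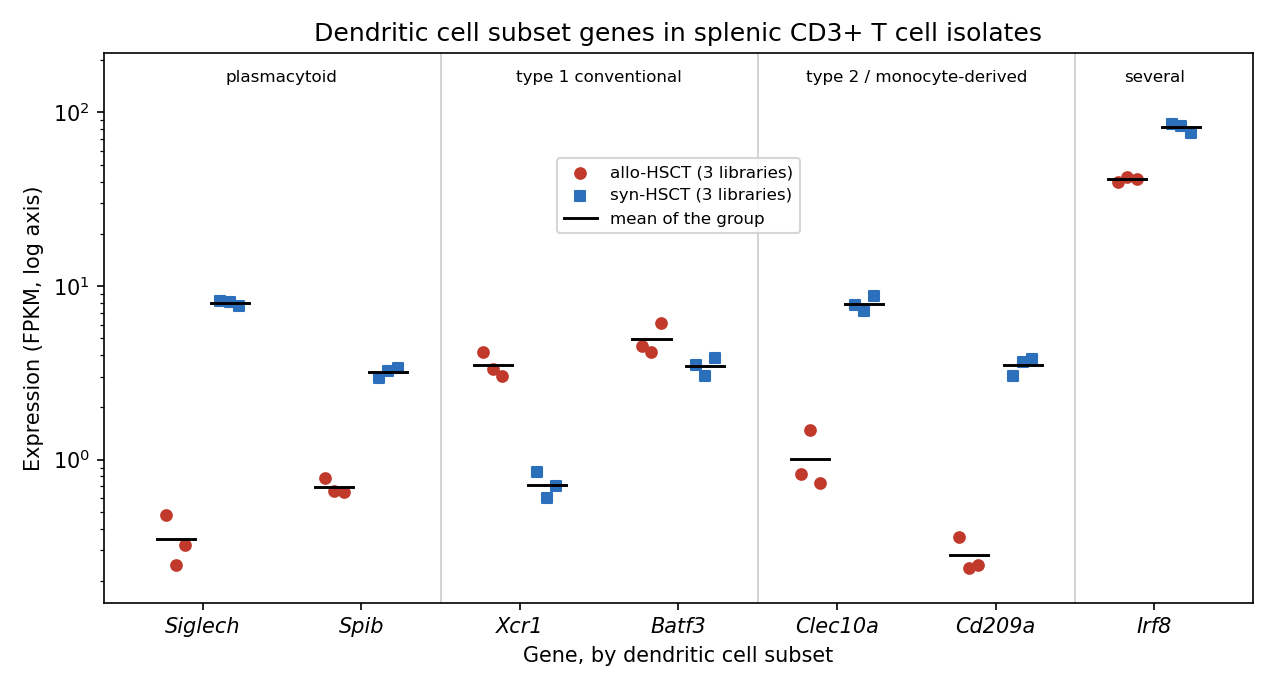
Expression of the 7 genes in FPKM on a log axis, grouped by dendritic cell subset, with allo-HSCT libraries as circles, syn-HSCT libraries as squares and a bar at the mean of each group of 3. The groups do not overlap for any of the 7 genes, and only Xcr1 and Batf3 lie higher in allo-HSCT.

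The upstream sequences of 3 genes are shown, so that each of the 3 subsets is represented. Each is the gene with the largest fold change of its subset among those with an entry in the RefSeq promoter table (GRCm38.p6). Each run holds the 250 bases before the annotated start, on the gene's strand and written 5′ to 3′. Capitals mark E-box matches (CANNTG), the kind of site to which E proteins such as TCF4, a master regulator of plasmacytoid cells, bind.
Siglech, chr7:55767934-55768183, plus strand: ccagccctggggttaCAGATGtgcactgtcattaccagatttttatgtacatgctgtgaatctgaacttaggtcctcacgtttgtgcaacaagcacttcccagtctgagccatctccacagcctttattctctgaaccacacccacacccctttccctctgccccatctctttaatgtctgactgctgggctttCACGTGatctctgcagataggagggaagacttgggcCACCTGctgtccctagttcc
Xcr1, chr9:123862030-123862279, minus strand: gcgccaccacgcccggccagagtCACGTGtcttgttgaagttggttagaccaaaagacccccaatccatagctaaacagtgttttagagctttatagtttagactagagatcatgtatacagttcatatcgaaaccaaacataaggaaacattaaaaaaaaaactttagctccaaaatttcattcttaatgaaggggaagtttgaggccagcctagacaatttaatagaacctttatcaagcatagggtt
Cd209a, chr8:3748985-3749234, minus strand: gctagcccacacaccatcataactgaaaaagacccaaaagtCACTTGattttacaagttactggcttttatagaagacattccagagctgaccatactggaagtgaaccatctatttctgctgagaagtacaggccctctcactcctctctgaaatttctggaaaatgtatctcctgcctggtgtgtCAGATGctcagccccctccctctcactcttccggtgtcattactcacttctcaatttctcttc

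Of the 7 genes, 6 had an entry in that table, Irf8 with a pair of starts. The Siglech run held 3 E-box matches, the nearest beginning 20 bases before the start, the Cd209a run held 2 and the Xcr1 run held 1. Over all 32851 promoter entries, 66.2% held a CANNTG match in the same 250 bases, so its presence sets none of these genes apart. An ETS-type match, GGAAGT on either strand, occurred in the runs of Siglech, Xcr1, Cd209a and Batf3 and in 19.7% of all entries. The ETS and IRF composite (GGAA, any 2 bases, GAAA; 2.3% of all entries), the interferon response pattern (GAAA, any 2 bases, GAAA; 2.98%) and the AP-1 pattern TGANTCA (6.75%) had no match in any of the 7 entries of these genes. Both strands were searched for all 5 patterns, and overlapping matches of different patterns were each kept. These are letter matches in a short window of the C57BL/6J reference, not measured sites.

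Siglech encodes Siglec-H, a Siglec family receptor of mouse plasmacytoid dendritic cells that signals through an adaptor protein. It stood at 0.479, 0.246 and 0.323 FPKM in the allo-HSCT libraries 1 to 3, against 8.23, 8.11 and 7.63 FPKM in the syn-HSCT libraries 1 to 3. All allo-HSCT libraries lay far below all syn-HSCT libraries. The values rested on 23, 12 and 15 reads in allo-HSCT and on 385, 404 and 339 reads in syn-HSCT. On log2(FPKM + 1) the fold change was -2.74 (SE 0.0863, 95% interval -2.93 to -2.55, limma adjusted p = 1.97e-08), the 10th lowest of the 5460 genes tested. The added 1 FPKM compresses changes of low genes: a limma-voom fit on the reads gave a log2 fold change of -4.53 (limma adjusted p = 1.87e-09).

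Spib encodes Spi-B, an ETS transcription factor needed by plasmacytoid cells and also used by B cells. Its level was 0.781, 0.655 and 0.653 FPKM in allo-HSCT, against 2.95, 3.22 and 3.38 FPKM in syn-HSCT. The groups lay apart and the libraries within each were close to each other. Spib was 4.57-fold lower in allo-HSCT, a log2 fold change of -1.30 (SE 0.0781, limma adjusted p = 4.82e-07). Spib is also a B cell gene. Of the 5 B cell markers tested, 4 were higher in allo-HSCT and only Blk was lower. All 4 at 1 FPKM or more in all 6 libraries were higher, and Blk was at 0.891 FPKM in allo-HSCT library 3. Cd79a (8.40 ± 0.364 FPKM in allo-HSCT and 5.07 ± 0.411 FPKM in syn-HSCT, SD, n = 3 each) and Cd22 (4.07 ± 0.399 FPKM in allo-HSCT and 1.6 ± 0.200 FPKM in syn-HSCT) were higher in allo-HSCT, while Blk (1.29 ± 0.351 FPKM in allo-HSCT and 2.04 ± 0.180 FPKM in syn-HSCT, limma adjusted p = 0.00661) was lower, as Spib was. These 3 were chosen after their values were seen, and the part of B cells in the level of Spib was not tested.

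Siglech fell more than Spib. The ratio of Siglech to Spib FPKM averaged 0.485 in allo-HSCT and 2.51 in syn-HSCT, a 5.18-fold difference, and the per-library ratios did not overlap (exact permutation test, two-sided p = 0.1, adjusted p = 0.109 over 12 ratios). With 3 libraries against 3, that test cannot give a p below 0.1, so no ratio between genes could pass 0.05.

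Xcr1 encodes the receptor for the chemokine XCL1 and is a surface marker of type 1 conventional dendritic cells in mouse and human. It was measured at 4.16, 3.31 and 3.04 FPKM in allo-HSCT, against 0.846, 0.602 and 0.703 FPKM in syn-HSCT. Every allo-HSCT library was above every syn-HSCT library, with allo-HSCT library 1 the highest. Xcr1 rose 4.88-fold (log2 fold change 1.39, SE 0.104, 95% interval 1.15 to 1.62, limma adjusted p = 2.03e-06). That was the 83rd largest rise of the genes tested.

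Batf3 encodes a basic leucine zipper transcription factor on which type 1 conventional cells depend, and activated T cells are known to express it too. Its level was 4.49, 4.18 and 6.11 FPKM in allo-HSCT, against 3.5, 3.05 and 3.86 FPKM in syn-HSCT. The groups did not overlap, but the gap between them was small and allo-HSCT library 3 stood above the other 2. The rise was 1.42-fold (log2 fold change 0.40, SE 0.125, 95% interval 0.12 to 0.68, limma adjusted p = 0.0125), and 63.1% of the genes tested had a larger absolute change. The call did not hold without syn-HSCT library 2 (log2 fold change 0.33, limma adjusted p = 0.0506), and without allo-HSCT library 3 the log2 fold change was 0.26 (limma adjusted p = 0.0447). Batf3 is short and had between 51 and 71 reads per allo-HSCT library and between 38 and 43 per syn-HSCT library.

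The Xcr1 to Batf3 ratio averaged 0.715 in allo-HSCT and 0.206 in syn-HSCT, 3.48-fold apart and without overlap (exact permutation test, p = 0.1, adjusted p = 0.109). Between subsets the ratios differed by more. The Siglech to Xcr1 ratio averaged 0.0969 in allo-HSCT and 11.2 in syn-HSCT, and the Clec10a to Xcr1 ratio averaged 0.278 in allo-HSCT and 11.1 in syn-HSCT (exact permutation test, p = 0.1 and adjusted p = 0.109 for each).

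Clec10a encodes MGL1, a galactose-type lectin receptor of type 2 dendritic cells and macrophages. Its level was 0.827, 1.48 and 0.734 FPKM in allo-HSCT, against 7.77, 7.22 and 8.77 FPKM in syn-HSCT. All allo-HSCT values were below all syn-HSCT values, and allo-HSCT library 2 was the highest of its group. Clec10a fell 7.82-fold (log2 fold change -2.16, SE 0.133, limma adjusted p = 5.75e-07). Its coefficient of variation in allo-HSCT, 39.9%, was above the 19.7% that counting its reads alone would give. Mgl2, its close paralog, was at 0.380 ± 0.191 FPKM in allo-HSCT and 0.930 ± 0.171 FPKM in syn-HSCT (SD, n = 3 each) and was too low to be tested. Reads can be split between near-identical genes, so the share of each is uncertain.

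Cd209a encodes the mouse relative of DC-SIGN, a lectin receptor of type 2 and monocyte-derived dendritic cells. It was the lowest of the 7 in allo-HSCT, at 0.359, 0.236 and 0.248 FPKM, against 3.03, 3.65 and 3.79 FPKM in syn-HSCT. The groups were far apart, and the allo-HSCT values rested on 9, 6 and 6 reads, 21 in all (exact Poisson 95% interval 13 to 32.1), against 257 reads in syn-HSCT (226.5 to 290.4); the intervals cover counting error only. Cd209a was 12.4-fold lower (log2 fold change -1.81, SE 0.0895, limma adjusted p = 1.40e-07; -3.56 with limma-voom on the reads). Its paralog Cd209d summed to 4 reads over the allo-HSCT libraries and 58 over the syn-HSCT libraries, and Cd209e to 13 reads in allo-HSCT and 20 reads in syn-HSCT. Neither was tested, and reads of this family can be split between its members.

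Clec10a and Cd209a could not be separated from each other by their change. The Clec10a to Cd209a ratio averaged 3.5 in allo-HSCT and 2.27 in syn-HSCT and its per-library values overlapped (difference of 0.62 in log2, exact permutation test, p = 0.3, adjusted p = 0.3). The SD of that log2 ratio was 0.749 in allo-HSCT, so a difference of this size lay within the spread.

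Irf8 encodes an interferon regulatory factor that type 1 cells require, that plasmacytoid cells carry, and that monocytes and B cells also express. It was the most abundant of the 7 by a wide margin, at 39.6, 42.3 and 41.5 FPKM in allo-HSCT, against 86.3, 83.5 and 76.2 FPKM in syn-HSCT. Libraries within a group were close and the groups lay apart. Irf8 was 1.99-fold lower (log2 fold change -0.98, SE 0.0762, 95% interval -1.15 to -0.81, limma adjusted p = 2.63e-06). It had between 2301 and 2489 reads per allo-HSCT library and between 4094 and 5025 per syn-HSCT library, the deepest counting of the 7. Relative to Irf8, Xcr1 and Batf3 were higher in allo-HSCT and the other 4 lower still. The Irf8 to Xcr1 ratio was 11.8 in allo-HSCT and 115 in syn-HSCT, whereas the Irf8 to Siglech ratio was 122 in allo-HSCT and 10.3 in syn-HSCT.

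**Figure D2:**
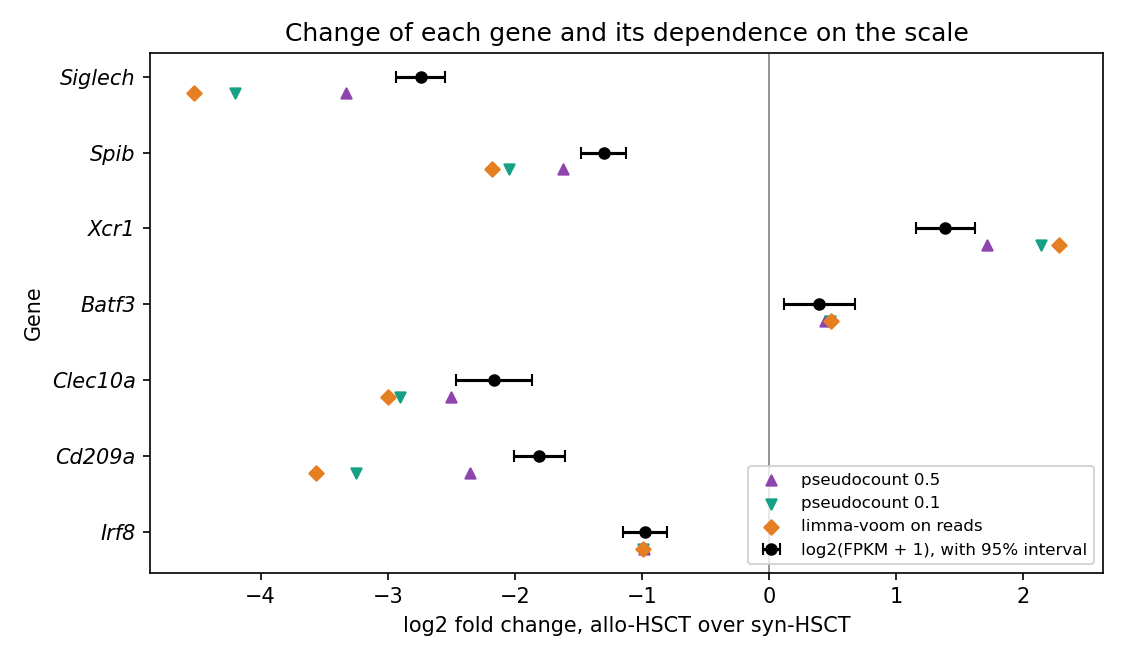
Log2 fold change of each gene, allo-HSCT over syn-HSCT, on log2(FPKM + 1) with its 95% interval (circles) and with pseudocounts of 0.5 and 0.1 FPKM or limma-voom on the reads (triangles and diamonds). The sign was the same on every scale and the change of Siglech ran from -2.74 to -4.53. Those of Batf3 (0.40 to 0.49) and Irf8 (-0.98 to -0.99) moved little in absolute terms.

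The order of the levels differed between the groups. In allo-HSCT it ran from Irf8 through Batf3, Xcr1, Clec10a, Spib and Siglech to Cd209a, and neighbours overlapped for Clec10a with Spib and for Siglech with Cd209a. In syn-HSCT it ran from Irf8 through Siglech, Clec10a, Cd209a, Batf3 and Spib to Xcr1, and neighbours overlapped for Siglech with Clec10a, for Cd209a with Batf3 and for Batf3 with Spib. Xcr1 was thus the third highest of the 7 in allo-HSCT and the lowest in syn-HSCT, while Siglech was next to last in allo-HSCT and the second highest in syn-HSCT.

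Some of these genes are used by other cells, and each was therefore also set over the summed FPKM of other cell types' markers, an addition chosen after seeing the data. Over the T cell markers, Siglech, Spib, Clec10a, Cd209a and Irf8 differed by between -1.74 (Irf8) and -5.31 (Siglech) on the log2 scale and Xcr1 by 1.55, with no overlap between groups. The log2 ratio of Batf3 to them differed by -0.25, with SDs of 0.288 in allo-HSCT and 0.166 in syn-HSCT and overlapping groups (exact permutation test, p = 0.3). Over the B cell markers it differed by -0.21 with overlap (exact permutation test, p = 0.5), whereas over the monocyte and macrophage markers it was higher by 2.18 and over the granulocyte markers by 1.38, both without overlap. Over the monocyte and macrophage markers Irf8 was higher in allo-HSCT by 0.70, and over the granulocyte markers it differed by -0.10 with overlap (exact permutation test, p = 0.5). Lyz2 alone stood at 217 ± 44.5 FPKM in allo-HSCT and 1634 ± 254 FPKM in syn-HSCT, most of the syn-HSCT monocyte and macrophage sum. Differences over that sum, the sign for Irf8 included, thus depend heavily on Lyz2 and were not recomputed without it. Mpo (88.0 ± 1.51 FPKM in allo-HSCT and 512 ± 16.3 FPKM in syn-HSCT) and Prtn3 (63.9 ± 2.76 FPKM in allo-HSCT and 418 ± 18.8 FPKM in syn-HSCT) were the largest parts of the syn-HSCT granulocyte sum. Both fell, while 6 of the 12 granulocyte markers rose. Differences over the granulocyte sum, those of Irf8 and Batf3 included, thus depend heavily on these 2 genes and were not recomputed without them. Siglech, Clec10a and Cd209a were lower over all 4 marker sums, with the smallest difference -1.34, that of Clec10a over the monocyte and macrophage markers. Spib was lower over each as well, with a difference of -0.50 over the monocyte and macrophage markers, and Xcr1 was higher over each. These are 28 comparisons, and the exact test cannot give a p under 0.1 for any of them.

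**Figure D3:**
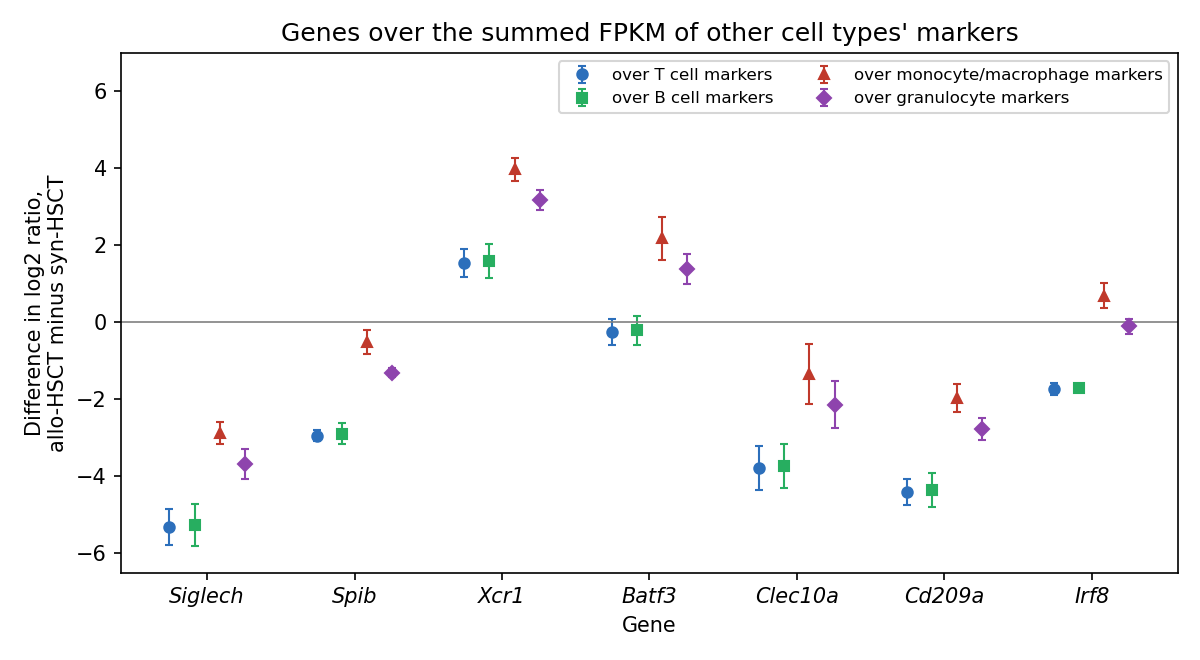
Difference in the log2 ratio of each gene to the summed FPKM of T cell, B cell, monocyte and macrophage, or granulocyte markers, allo-HSCT minus syn-HSCT; error bars are the square root of the summed variances of the 2 groups of 3 libraries. Batf3 lies at -0.25 over T cell markers and -0.21 over B cell markers, with overlapping groups, Irf8 changes sign with the denominator, and the other 5 genes keep their sign over all 4. The monocyte and macrophage sum is mostly Lyz2 in syn-HSCT, and Mpo and Prtn3 are the largest parts of the granulocyte sum there.

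The rest of each subset's programme was read from lists of further markers. Genes that entered the test through the group in which they were high had to differ. Each list below, the gene families aside, is therefore also counted over its genes at 1 FPKM or more in all 6 libraries. Over all 4780 such genes 49.9% rose and 44.1% fell, with a median log2 fold change of 0.21; over all genes tested 47.9% rose and 45.8% fell, with a median of 0.20. Of 17 further plasmacytoid genes, 15 were tested, of which 13 fell and 2 rose (median log2 fold change -0.88). Over the 9 at 1 FPKM in all 6 libraries, 7 fell and 2 rose, and the median was -0.36. The other 6, Tcf4, Klk1, Cox6a2, Smim5, Bcl11a and Upb1, entered through syn-HSCT and are among those that fell. Cox6a2, a cytochrome oxidase subunit known as a plasmacytoid marker in mouse, was at 0.301 ± 0.288 FPKM in allo-HSCT and 5.74 ± 0.353 FPKM in syn-HSCT (19.1-fold lower, 10 reads over the allo-HSCT libraries). Klk1, a kallikrein protease, fell 14.6-fold to 0.366 ± 0.255 FPKM in allo-HSCT, against 5.36 ± 0.354 FPKM in syn-HSCT. Ly6d, a surface marker of plasmacytoid and B lineage progenitors, fell 4.56-fold to 4.15 ± 0.931 FPKM in allo-HSCT, against 18.9 ± 1.12 FPKM in syn-HSCT (SD, n = 3 each; limma adjusted p between 3.12e-07 and 6.74e-07 for these 3). Tcf4, the E protein named above, singled out after its values were seen, was at 0.330 ± 0.0353 FPKM in allo-HSCT and 1.44 ± 0.139 FPKM in syn-HSCT, 4.38-fold lower. Pacsin1 went against the list and rose 2.49-fold (10.03 ± 1.59 FPKM in allo-HSCT and 4.03 ± 0.458 FPKM in syn-HSCT). Irf7, the factor that drives type I interferon genes, was the other gene called higher, at 51.1 ± 4.59 FPKM in allo-HSCT and 44.1 ± 3.29 FPKM in syn-HSCT. Its groups overlapped and its call (limma adjusted p = 0.0475) was lost in 7 of 15 alternatives, among them leaving out allo-HSCT library 2 or 3 or syn-HSCT library 1 or 2 (limma adjusted p up to 0.181). Tlr7, a nucleic acid sensor of plasmacytoid cells counted among those that fell, was as fragile: it stood at 3.31 ± 0.642 FPKM in allo-HSCT and 4.31 ± 0.596 FPKM in syn-HSCT with overlapping groups. Its call (limma adjusted p = 0.0345) was lost in 7 of 14 alternatives, among them leaving out the same 4 libraries (limma adjusted p up to 0.113).

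Of 16 further type 1 genes, 13 were tested, of which 9 rose, 2 fell and 2 did not pass (median log2 fold change 0.46). Over the 9 at 1 FPKM in all 6 libraries, 6 rose, 1 fell and 2 did not pass (median 0.29). Of all such genes 49.9% rose and 44.1% fell, with a median of 0.21. Tlr3, Gcsam and Tlr11 entered through allo-HSCT and are among those that rose, and Itgb8 entered through syn-HSCT. Ly75, the endocytic receptor DEC-205, rose 2.44-fold to 13.4 ± 0.808 FPKM in allo-HSCT, against 5.49 ± 0.450 FPKM in syn-HSCT. Gcsam, a signalling adaptor, rose 2.53-fold to 1.75 ± 0.269 FPKM in allo-HSCT, against 0.691 ± 0.231 FPKM in syn-HSCT. Itgae, the integrin CD103 that CD8+ T cells also carry, rose 1.67-fold. Cd24a, a surface glycoprotein also abundant on erythroid cells and granulocytes, fell 2.05-fold, and the integrin gene Itgb8 fell 2.24-fold. Clec9a, a receptor for actin exposed by dead cells and a further marker of type 1 cells, was singled out after its values were seen. It stood at 4.72, 3.35 and 3.59 FPKM in allo-HSCT, against 3.15, 3.22 and 3.59 FPKM in syn-HSCT. The groups overlapped and the gene did not pass (log2 fold change 0.17, limma adjusted p = 0.157), while Xcr1 was 4.88-fold higher in the same libraries. With quantile normalization Clec9a passed as higher (limma adjusted p = 0.0344). Cadm1, an adhesion molecule of type 1 cells, did not pass either (limma adjusted p = 0.0914), but passed as higher in 4 of 14 alternatives: quantile normalization (limma adjusted p = 0.0106, the lowest), limma-voom on the reads, equal library medians and leaving out syn-HSCT library 1.

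Of 28 further type 2 and monocyte-derived genes, 16 were tested, of which 14 fell and 2 rose (median log2 fold change -0.74), against 45.8% and 47.9% of all genes tested. Over the 15 at 1 FPKM in all 6 libraries, 13 fell and 2 rose (median -0.75). The chemokine receptor gene Ccr2, which monocytes use to leave bone marrow, fell 3.25-fold to 18.5 ± 2.47 FPKM in allo-HSCT, against 60.1 ± 4.63 FPKM in syn-HSCT. The lectin receptor genes Clec12a (2.76-fold) and Clec4a3 (2.75-fold) fell as well. Fcer1a, the high-affinity IgE receptor chain of mast cells, basophils and some dendritic cells, rose 2.53-fold to 18.8 ± 4.14 FPKM in allo-HSCT, against 7.44 ± 1.58 FPKM in syn-HSCT. Irf4, which type 2 cells and activated T cells share, rose 1.37-fold to 24.1 ± 0.450 FPKM in allo-HSCT, against 17.6 ± 0.957 FPKM in syn-HSCT (limma adjusted p = 4.07e-04). The monocyte and macrophage markers were lower in the same libraries, and their part in these changes was not tested.

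The pan-dendritic list was divided, with 4 of 13 tested genes higher and 9 lower (median log2 fold change -1.20), and with 4 higher and 8 lower over the 12 at 1 FPKM in all 6 libraries (median -0.98). Csf2ra, the GM-CSF receptor chain, fell 5.36-fold to 2.64 ± 0.151 FPKM in allo-HSCT, against 14.2 ± 0.593 FPKM in syn-HSCT. The transcription factor gene Bcl11a (6.05-fold, also on the plasmacytoid list) and the growth factor receptor gene Kit (2.95-fold) fell too. Flt3, the receptor whose ligand sustains dendritic cells, singled out after its values were seen, stood at 3.74, 3.04 and 3.05 FPKM in allo-HSCT, against 9.89, 9.48 and 9.82 FPKM in syn-HSCT. All allo-HSCT libraries were below all syn-HSCT libraries (2.97-fold lower, limma adjusted p = 7.87e-07). The genes that rose were Dpp4, the transcription factor gene Ikzf1 (1.57-fold), which lymphocytes share, the class II invariant chain gene Cd74 (1.72-fold) and Ciita, the class II transactivator (2.22-fold).

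Of 13 tested genes of mature, migrating dendritic cells, 10 were called higher, 2 lower and 1 did not pass (median log2 fold change 0.64), where 47.9% of all genes tested were called higher and 45.8% lower. Over the 11 at 1 FPKM in all 6 libraries, 8 were higher, 2 lower and 1 did not pass (median 0.51). Ccl17 and Il12b entered through allo-HSCT and are among those that were called higher. Fscn1, the actin bundler fascin of mature dendritic cells, rose 4.33-fold and stood at 27.3, 26.5 and 27.6 FPKM in allo-HSCT, against 6.42, 5.95 and 6.42 FPKM in syn-HSCT. Ccl22, a chemokine of mature dendritic cells, rose 5.08-fold and was at 9.27, 9.24 and 9.06 FPKM in allo-HSCT, against 1.68, 1.99 and 1.77 FPKM in syn-HSCT. Both genes were tight within groups, with limma adjusted p of 3.60e-08 and 4.82e-08. Ccl17, which acts on the same receptor as Ccl22, was 10.9-fold higher on 131 reads in allo-HSCT and 12 reads in syn-HSCT. Against the list, Cd83, a surface marker of maturation, fell 1.81-fold and Samsn1, a signalling adaptor, fell 1.75-fold. The 15 T cell markers rose in the same libraries with a median log2 fold change of 0.79, and the part of T cells in the changes of this list was not tested.

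**Figure D4:**
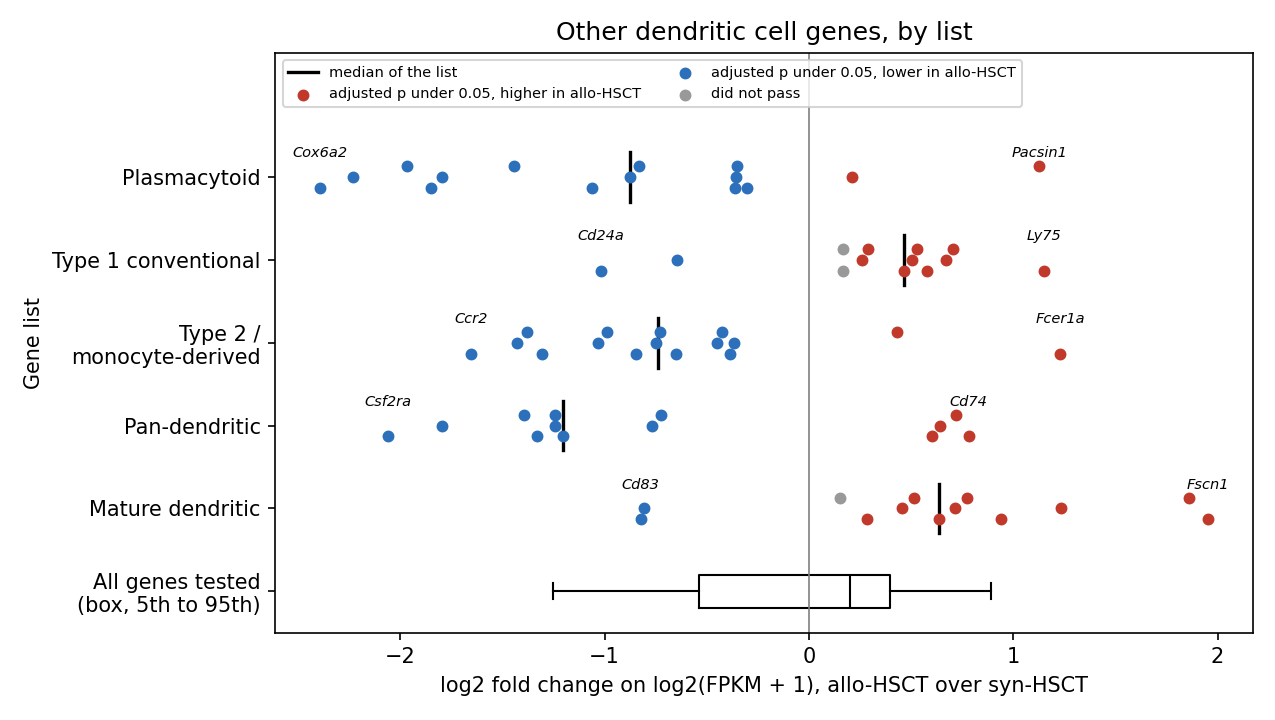
Log2 fold changes of the tested genes of 5 dendritic cell lists without the 7 genes, one point per gene coloured by its call, with a bar at the list median and the genes at each end named; the box shows the middle of all 5460 tested genes and its whiskers the 5th and 95th percentiles. The plasmacytoid and type 2 lists lie mostly below 0 and the type 1 and mature lists mostly above 0. All genes tested have a median of 0.20. The type 1 median is 0.46, and 0.29 over its genes at 1 FPKM in all 6 libraries.

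Signals that act on dendritic cells were divided, with 6 of 11 tested genes higher, 3 lower and 2 not passing (median log2 fold change 0.30). Over the 10 at 1 FPKM in all 6 libraries, 5 were higher, 3 lower and 2 did not pass (median 0.26). Csf2 entered through allo-HSCT and is among those that rose. Xcl1, the XCR1 ligand made by CD8+ T cells and NK cells, fell 1.56-fold to 66.7, 46.1 and 52.5 FPKM in allo-HSCT, against 84.8, 87.1 and 85.5 FPKM in syn-HSCT. Ligand and receptor thus moved in opposite directions. Ifng (2.65-fold), Csf2, the GM-CSF gene (4.09-fold), and Cd40lg (1.92-fold) rose, and Tnf (3.27-fold) and Il10 (1.95-fold) fell. Csf2 and its receptor chain gene Csf2ra also went opposite ways.

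The families of the 7 genes are small, and 93.7% of all genes tested were called in either direction, 47.9% as higher and 45.8% as lower, so their counts are descriptions. All 3 members of the PU.1 family fell: Spi1 (PU.1 itself, 2.42-fold), Spib and Spic, a factor of red pulp macrophages (1.56-fold). In the Siglec family 5 of 7 fell and 2 rose. Siglech had the largest fall, Siglecg was 3.11-fold, Siglece 1.49-fold, Siglecf 1.48-fold and Cd33 1.42-fold lower, and Siglec1 (1.5-fold) and Cd22 (2.55-fold) were higher. Of the IRF genes tested, Irf5 (2.11-fold) and Irf8 fell, and Irf2 (1.29-fold), Irf4 and Irf7 rose. All 3 Batf genes rose, and Batf, the relative used by many activated T cells, was the most abundant of them at 82.7 ± 5.68 FPKM in allo-HSCT and 36.1 ± 1.83 FPKM in syn-HSCT (2.29-fold). Batf2 was 1.78-fold higher at 1.36 ± 0.0565 FPKM in allo-HSCT and 0.765 ± 0.353 FPKM in syn-HSCT, and it entered the test through allo-HSCT. The AP-1 partners in the table fell: Jun and Fos 1.90-fold each, Fosl1 1.83-fold and Fosb 1.82-fold.

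The genes whose profile over the 6 libraries was nearest to each of the 7, by the root mean square difference in centred log2(FPKM + 1), were mostly not dendritic markers. Nearest to Siglech were Adgrl4, Tlr2 and Ccl9 (differences of 0.051 to 0.063), and near to Irf8 were Tgfbi and Wls (0.029 and 0.030). For Xcr1 they were Slamf7, Slc28a2 and Ifng (0.080 to 0.097), and for Batf3 C1qtnf12, Adat3 and Rdh13 (0.085 to 0.096). For Clec10a they were Pi16, Pik3r6 and the plasmacytoid list gene Klk1 (0.117 to 0.136), for Cd209a Sh2d5, Rnase6 and Gpx1 (0.073 to 0.080), and for Spib Smim3, Klrb1f and Emp1 (0.041 to 0.050). With 2 groups of 3, genes with a fold change of similar size score as alike.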

How the data were processed

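RNA of splenic CD3+ T cell isolates was sequenced in 6 libraries, 3 from allo-HSCT and 3 from syn-HSCT recipients. Per the labels' protocols, ribosomal RNA was depleted and libraries were made with a New England Biolabs kit; limma is listed among tools in the submitters' processing notes, with no version. None of aligner, counter, genome build and strandedness is given in the sources used here. No unit stands in the table the authors deposited. The values are treated as FPKM that the authors computed, because value times a length gave whole numbers of reads at 1 total per library. Each total was recovered as the one that the most single-transcript genes shared, between 57 and 65 of 1036 per library. The next most shared total had between 24 and 37. Only a preset range of totals was searched, and a multiple of a total would scale all read numbers. The length was an annotated transcript length for 457 genes. For the other 8011 genes it was searched for as the smallest that made the values whole. All values of 8468 of 8468 genes then came out within 2.6e-05 of a whole number. At the annotated length of genes with a single transcript, only 11.92% to 12.78% of the values per library were whole. Read numbers therefore rest mostly on searched lengths. These recovered numbers may be of reads or of pairs.

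The table holds 42.15% to 45.50% of each library's reads. Counts of genes describe this table, not the transcriptome. List genes outside it are not analysed here, and whether they changed is not known.

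The 5460 genes that reached 1 FPKM in any 3 libraries entered a limma fit (version 3.58.1, R 4.3.3) of log2(FPKM + 1) on group alone, trend included, with a Benjamini-Hochberg adjusted p under 0.05 as the threshold. The scripts were tested on simulated data. Folds are ratios of mean FPKM. Ratios between genes used exact permutation tests (SciPy 1.17.1), two-sided. The 7 genes and all lists were chosen with earlier results of these data known. Beside the 7, up to 3 genes per list and direction were named by size of change, with the relatives in 4 families and the 3 nearest genes to each; a few items are not reported here. Alternatives were pseudocounts of 0.1 and 0.5, no filter or a mean of at least 5 FPKM, equal medians, quantile normalization, no trend, limma-voom on reads, the replicate number as a block and leaving out each library.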

Additional observations from a re-analysis of the deposited data

How the results depend on the processing

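All 7 genes kept their direction under each refit that tested them, though not over every marker sum for Batf3 and Irf8. Siglech, Spib, Xcr1, Clec10a, Cd209a and Irf8 stayed past the threshold in each; at a mean of at least 5 FPKM only Irf8 was tested. Batf3 lost its call without syn-HSCT library 2, and its log2 fold change ranged from 0.26 to 0.49 when libraries were left out in turn. Smaller pseudocounts and limma-voom widened the changes of low genes; over all alternatives the log2 fold change of Siglech ran from -2.67 to -4.53, that of Cd209a from -1.74 to -3.56 and that of Xcr1 from 1.28 to 2.28. The number of genes called lower was 2500, against 1604 where a mean of 5 FPKM was required and fewer genes were tested. Over the summed T cell and B cell markers the log2 difference of Batf3 was -0.25 and -0.21, and over the monocyte and macrophage markers that of Irf8 was 0.70, each of opposite sign to the unscaled difference. The monocyte and macrophage sum was mostly Lyz2 in syn-HSCT. Setting library medians equal shifted log2 fold changes by 0.05 (median). The 12 ratios between genes moved by less than their spread in all 96 recomputations. Of 564 recomputed list counts, 545 stayed within 1.5 times. The labels number libraries 1 to 3 in both groups, but nothing says that a number is shared: the correlations of same-numbered deviations were -0.02, -0.20 and 0.08. With the replicate number as a block, 2582 genes were called higher and 2523 lower, and all 7 genes stayed called (Batf3 log2 fold change 0.40, limma adjusted p = 0.0016). Depth limits Cd209a most, with 6 to 9 reads per allo-HSCT library.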
